A study of Mus musculus with 9 samples.

Results

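Cadherins and protocadherins were taken as every gene of the expression table whose symbol begins with Cdh and a number or with Pcdh, which gave 92 of the 21899 genes. They comprised 23 Cdh genes, 12 protocadherin genes outside the clusters (Pcdh1, Pcdh7, Pcdh15 and others), and 57 clustered protocadherin genes, of which 14 were Pcdha, 22 Pcdhb and 21 Pcdhg genes. RNA was sequenced from Neuro-2a (N2a) cells, a mouse neuroblastoma line that the labels place under brain as a neuroblast, in 9 libraries of 3 groups. The control group expressed a hairpin against luciferase (shlucif, 3 libraries), and the Arf1-deficient groups expressed shArf1-1 (3 libraries) or shArf1-2 (3 libraries), both against Arf1, which encodes a small GTPase of Golgi traffic. All groups carried a lentiviral pLKO.1 hairpin with puromycin resistance and are labelled as otherwise untreated. Every library thus came from the same parental cell line, transduced with a different hairpin in each group. The labels do not say that the replicates were separate cultures, and p-values then measure only the spread between these libraries, which may be technical.

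Cadherins are calcium-dependent adhesion proteins of the cell surface. Classical cadherins hold like cells together and are tied to actin through the catenins, and in neurons they act in sorting, synapse formation and axon growth. Clustered protocadherins lie side by side on 1 chromosome, and each neuron transcribes only some of them, which gives its surface an identity that its own branches can recognize. In the alpha and gamma clusters every gene has a variable first exon of its own that is spliced to constant exons shared by the whole cluster, whereas beta genes are single exons with no constant part.

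Libraries held between 11182479 and 15594615 counts. Arf1 itself was at 324 ± 6.72 FPKM (SD, n = 3) with shlucif, at 128 ± 1.73 FPKM (SD, n = 3) with shArf1-1 and at 165 ± 6.92 FPKM (SD, n = 3) with shArf1-2, with no overlap between Arf1-deficient and control libraries. FPKM scales a count to gene length and library total, so that genes of different length can be compared. Of the 12 noradrenergic neuroblast and neuron markers 12 were tested, 10 were higher and 1, Map2, was lower in Arf1-deficient cells. Over all tested genes 31.6% were higher and 32.9% lower. For 6 of the 12 the change differed between the hairpins, where 6.98% of all tested genes were higher and 7.46% lower with shArf1-2. Macrophage or microglia markers, which the labelled cell type should lack, summed to between 183 and 225 CPM (counts scaled to a common library total) with shlucif and to between 0.817 and 1.16 CPM in Arf1-deficient libraries, and all 9 that were tested were lower. The tested macrophage markers had enough counts for the test only in the shlucif libraries. Of them, Ctss and Itgam were at 0 in every Arf1-deficient library. Aif1 was not tested, with 2 to 5 counts with shlucif and 0 in every Arf1-deficient library. Of 6 fibroblast markers 3 were tested, and Col1a1 was lower (log2 fold change -1.71, standard error 0.34, adjusted p = 0.000289), while Dcn (0.45, adjusted p = 0.197) and Pdgfra (-0.25, adjusted p = 0.125) did not pass. The change of Col1a1 differed between the hairpins by 1.41 (adjusted p = 0.00229). In bulk RNA, fewer cells of a type and less RNA per cell cannot be told apart.

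Most members were silent or close to it in N2a cells. No read was counted in any library for 7 members, which were Cdh7, Cdh9, Cdh16, Cdh19, Pcdh18, Pcdh20 and Pcdhga10, and 31 members had at most 3 counts in every library. Cdh1, which encodes E-cadherin of epithelia, was among these 31 with 0 counts in every shlucif library and at most 3 in any other. In all, 48 members stayed below 10 counts in every library and 44 reached 10 counts in at least 1.

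A total of 34 members had enough counts to be tested between Arf1-deficient and shlucif cells, and 58 did not. The quasi-likelihood test of edgeR, adjusted by Benjamini-Hochberg over all 12448 tested genes with a threshold of 0.05, marked 14 members as higher and 5 as lower, and 15 did not pass. Over all tested genes 31.6% were higher and 32.9% lower past the same threshold. The median log2 fold change of the tested members was 0.21, against 0.00 over all tested genes. Among the members that rose were Pcdh1, Pcdhac2, Pcdha8, Pcdha9, Pcdhb9, Pcdhgb1, Cdh18 and Cdh22, and those that fell were Pcdh7, Cdh5, Cdh17, Pcdhb11 and Pcdhgc3. Without shlucif replicate 3 the number of members higher was 9 instead of 14.

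By family, the threshold was passed upward by 2 and downward by 2 of 8 tested Cdh genes, upward by 2 and downward by 1 of 3 tested protocadherins outside the clusters, upward by all 5 tested Pcdha genes, upward by 4 and downward by 1 of 15 tested Pcdhb genes, and upward by 1 and downward by 1 of 3 tested Pcdhg genes. Over all tested genes 31.6% were higher and 32.9% lower. Of the 5 tested Pcdha genes, 3 passed upward with shArf1-1 alone and 5 with shArf1-2 alone. The median log2 fold change was 0.80 for the tested Pcdha genes, 0.16 for Pcdhb and -0.11 for Pcdhg. Some members entered the test through the Arf1-deficient libraries alone. The filter needed about 0.734 CPM in at least 3 libraries. No shlucif library reached this for Cdh23, Pcdhac1 and Pcdhb3, and 1 did for Cdh18. Pcdh7 entered through the shlucif libraries alone, since no Arf1-deficient library reached this level.

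**Figure D1:**
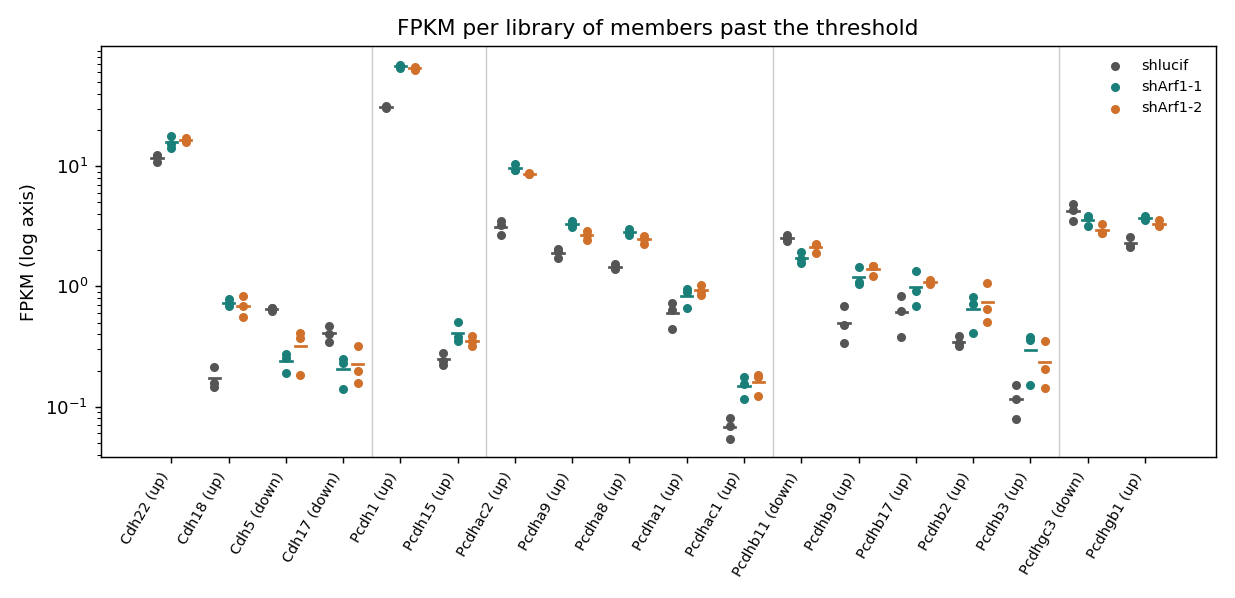
FPKM (log axis) of 18 of the 19 members past the threshold in each library, with dots for single libraries, short lines for group means and grey lines between families; "up" and "down" mark the direction of the call in Arf1-deficient cells. Pcdh7 is left out because a log axis cannot show its values of 0. Pcdh1 stood highest in every library (30.1 to 31.7 FPKM with shlucif, 62.5 to 69.5 FPKM in Arf1-deficient cells), and Pcdhac1 was the lowest of those that rose.

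Pcdh1, which encodes an adhesion protein known from airway epithelium, was the most abundant member in control cells, at 31.0 ± 0.84 FPKM (SD, n = 3). The next in order with shlucif were Cdh22 at 11.7 ± 0.817 FPKM, Cdh24 at 5.06 ± 0.779 FPKM, Pcdhgc3 at 4.2 ± 0.704 FPKM and Pcdhac2 at 3.13 ± 0.434 FPKM (SD, n = 3 each). The libraries of Cdh24 and Pcdhgc3 overlapped, as did those of Pcdhgc3 and Pcdhac2 and those of Pcdhac2 and Pcdhb20, the next gene. Those of Pcdh1 and Cdh22 stood apart from each other and from the rest. The places of Pcdhgc3 and Pcdhac2 in this order are uncertain, since they share exons with other genes of their clusters. Cdh2, which encodes N-cadherin of neurons and stood lower in this order, was at 2.00 ± 0.168 FPKM (SD, n = 3).

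Pcdh1 (ENSMUSG00000051375, minus strand, chromosome 18, 38185914 to 38212053 in GRCm38) is not part of the clusters. It was at 31.2, 31.7 and 30.1 FPKM in the shlucif libraries, at 67.9, 69.5 and 64.6 FPKM with shArf1-1 and at 66.0, 62.5 and 65.7 FPKM with shArf1-2. Every Arf1-deficient library held more than the control level and none overlapped with it. The log2 fold change was 1.03 (standard error 0.05, adjusted p = 2.71e-12), with 1.07 for shArf1-1 and 0.99 for shArf1-2. The difference of -0.07 (shArf1-2 minus shArf1-1) did not pass the threshold (adjusted p = 0.359).

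Pcdh15 encodes the lower part of the tip link that opens the transduction channels of hair cells, and Cdh23 encodes the upper part. Pcdh15 (ENSMUSG00000052613, chromosome 10, 73099342 to 74649737, plus strand) had 73, 76 and 91 counts with shlucif, 105, 134 and 141 with shArf1-1 and 135, 112 and 108 with shArf1-2. All 6 Arf1-deficient libraries were above every control library, and the log2 fold change was 0.56 (standard error 0.16, adjusted p = 0.00498). Its partner Cdh23 was at 6, 9 and 9 counts with shlucif and between 7 and 20 counts in Arf1-deficient libraries, with overlap, and did not pass (log2 fold change 0.68, standard error 0.39, adjusted p = 0.131).

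Pcdh7 (ENSMUSG00000029108, chromosome 5, 57717967 to 58133230, plus strand) encodes a protocadherin of the delta group, which is not clustered. It had 29, 33 and 18 counts in the shlucif libraries, 0 in each shArf1-1 library and 0, 1 and 0 in the shArf1-2 libraries. The gene was thus detected in all control libraries and in 1 Arf1-deficient library by a single count. Against a floor of 3 counts per library it was at least 8.41-fold lower with shArf1-1. With shArf1-2 the ratio of summed counts, scaled by library totals, was 82.9 (95% exact interval 14.5 to 3320, counting error only), and over both hairpins it was 160.0 (27.9 to 6400). The adjusted p was 2e-08 over both hairpins, for a gene that passed the filter through the shlucif libraries alone. The macrophage markers given above moved with it in the same libraries, and their part in this result was not tested. An annotated gene on the opposite strand covers 21.1% of the exonic bases of Pcdh7, and whether counting used strand is not given in the sources used here.

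The remaining delta and other protocadherins outside the clusters were not tested. Pcdh10 had 7, 5 and 4 counts with shlucif, 5, 3 and 0 with shArf1-1 and 0, 1 and 0 with shArf1-2, so that shArf1-1 and shlucif overlapped. Its summed counts gave a ratio of 16.6 between shlucif and shArf1-2 (95% exact interval 2.58 to 695), which covers counting error only and not the spread between libraries. Pcdh12 reached at most 9 counts and Pcdh17 at most 6, while Pcdh8, Pcdh9, Pcdh11x, Pcdh18, Pcdh19 and Pcdh20 had at most 3.

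Among the Cdh genes, Cdh18 and Cdh22 rose, both encoding classical cadherins of the nervous system. Cdh18 (ENSMUSG00000040420, chromosome 15, 22549022 to 23474418, plus strand) had 10, 13 and 9 counts with shlucif, 39, 40 and 52 with shArf1-1 and 46, 51 and 36 with shArf1-2. The groups did not overlap, and the log2 fold change, the largest rise among the tested members, was 1.97 (standard error 0.28, adjusted p = 4.76e-06). Cdh22 (ENSMUSG00000053166, chromosome 2, 165111507 to 165234853, minus strand) was at 12.3, 10.8 and 12 FPKM with shlucif, at 15.3, 17.8 and 14.1 FPKM with shArf1-1 and at 16.3, 15.8 and 17.2 FPKM with shArf1-2. Its rise was small but without overlap, with a log2 change of 0.39 (standard error 0.08, adjusted p = 0.000337). Cdh22 made up 49.2 ± 1.81% of all Cdh counts with shlucif, 55.6 ± 1.55% with shArf1-1 and 53.9 ± 1.41% with shArf1-2 (SD, n = 3 each).

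Cdh5 and Cdh17 fell. Cdh5 (ENSMUSG00000031871, chromosome 8, 104101625 to 104144511, plus strand), which encodes VE-cadherin of vascular endothelium, had 36, 37 and 38 counts with shlucif, 10, 12 and 18 with shArf1-1 and 25, 21 and 11 with shArf1-2. No Arf1-deficient library reached a control library, and the log2 fold change was -1.26 (standard error 0.28, adjusted p = 0.000641). Of the 5 endothelial markers, Pecam1 was lower (log2 fold change -1.10, standard error 0.11, adjusted p = 6.22e-08), Tek did not pass (-0.21, adjusted p = 0.608), and Kdr, Tie1 and Emcn were at 3 counts or fewer. The endothelial markers summed to between 22.7 and 25 CPM with shlucif and to between 10.8 and 14.8 CPM in Arf1-deficient libraries, and neither their part in the change of Cdh5 nor that of the macrophage markers was tested.

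Cdh17 (ENSMUSG00000028217, chromosome 4, 11758147 to 11817895, plus strand), which encodes the liver-intestine cadherin, had 25, 28 and 21 counts with shlucif, 14, 7 and 16 with shArf1-1 and 21, 12 and 10 with shArf1-2. In FPKM all Arf1-deficient libraries were below the control libraries, and the log2 fold change was -0.95 (standard error 0.31, adjusted p = 0.0108). The call was lost without shlucif replicate 2 (adjusted p = 0.0632). Of the untested Cdh genes, Cdh13, which encodes a cadherin without a cytoplasmic part, reached 21 counts and Cdh26 reached 13 in their highest library. The epithelial markers Epcam and Krt18 were at 0 in every library, and Krt8 was lower (log2 fold change -0.87, standard error 0.29, adjusted p = 0.0149). The change of Krt8 differed between the hairpins by 1.1 (edgeR adjusted p = 0.000937).

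**Figure D2:**
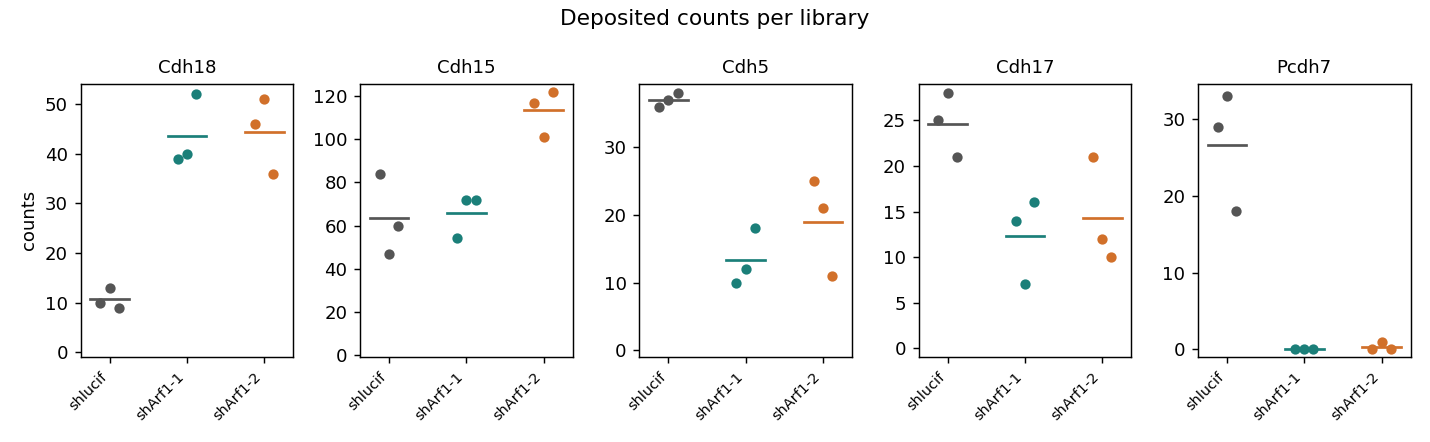
Deposited counts per library of 5 members read at modest counts, with dots for single libraries and lines for group means; each panel has its own axis from about 0. Cdh18 was at 9 to 13 counts with shlucif and at 36 to 52 in Arf1-deficient libraries, Cdh15 was highest with shArf1-2 (101 to 122 counts), and Pcdh7 was at 18 to 33 counts with shlucif and at 0 or 1 otherwise.

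The other well-read Cdh genes did not pass the test. Cdh2 was at 2.13, 2.06 and 1.81 FPKM with shlucif, at 1.99, 2.04 and 1.94 FPKM with shArf1-1 and at 2.15, 1.96 and 2.20 FPKM with shArf1-2, and its log2 fold change was -0.03 (standard error 0.10, adjusted p = 0.809). Cdh24, which encodes a classical cadherin that binds catenins, was at 5.06 ± 0.779, 5.14 ± 0.571 and 5.32 ± 0.324 FPKM (SD, n = 3 each) with shlucif, shArf1-1 and shArf1-2, and its log2 fold change was -0.02 (standard error 0.11, adjusted p = 0.895). The groups overlapped in both genes, and under library size scaling both values took the opposite sign.

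Cdh15 (ENSMUSG00000031962, chromosome 8, 122847966 to 122867397, plus strand), which encodes M-cadherin of muscle, was the member that differed between the hairpins. It had 84, 47 and 60 counts with shlucif, 54, 72 and 72 with shArf1-1 and 117, 101 and 122 with shArf1-2. The shArf1-2 libraries were above all others, while shArf1-1 and shlucif overlapped. The log2 fold change was 0.71 with shArf1-2 (standard error 0.20, adjusted p = 0.00253) and 0.07 with shArf1-1 (standard error 0.21, adjusted p = 0.796). The difference of 0.64 between them passed the threshold (standard error 0.20, adjusted p = 0.026), and over both hairpins together Cdh15 did not pass (0.43, adjusted p = 0.117).

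Against shlucif, 12 members were higher and 6 lower with shArf1-1, where 33.1% of all tested genes were higher and 34.4% lower, and 14 were higher and 5 lower with shArf1-2, where 30.9% were higher and 32.6% lower. Both comparisons share the shlucif libraries. With shArf1-1 alone Pcdhb6 was also lower (log2 fold change -0.69, standard error 0.24, adjusted p = 0.0106), a gene chosen after its values were seen, and with shArf1-2 it was at -0.27 (adjusted p = 0.305). Between the hairpins 1 of 34 members passed, Cdh15, which was higher with shArf1-2, and of all tested genes 6.98% were higher and 7.46% lower with shArf1-2. At an unadjusted p under 0.05, 4 members differed, and those beyond Cdh15 were Pcdha9, Pcdhac2 and Pcdhgc3, all lower with shArf1-2. The share of all tested genes under this looser threshold was not counted, so nothing is read from these 4.

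**Figure D3:**
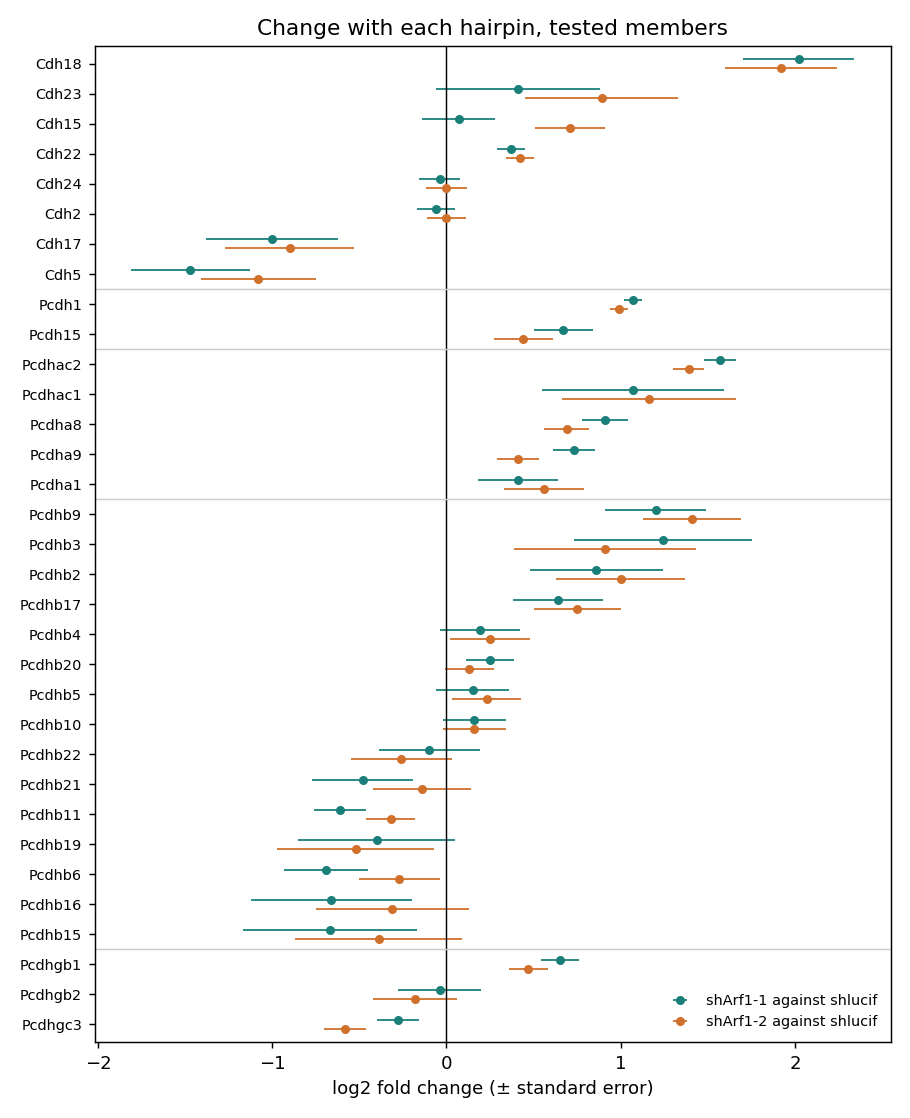
Log2 fold change with each hairpin against shlucif for 33 tested members, with dots for the estimates and bars for ± 1 standard error, ordered by family and, within it, by the change over both hairpins. Pcdh7 is left out because its Arf1-deficient libraries held 0 or 1 count. All 5 Pcdha genes lay to the right of 0 with both hairpins, the Pcdhb genes spread to both sides, and the hairpins stood apart for Cdh15 (0.07 and 0.71).

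The bases before an annotated start are shown for Cdh18, Cdh22 and Pcdh15, since they all rose and lie on separate chromosomes. Pcdh7 was matched to the promoter table as well, and Cdh5 and Cdh17, which were also called, were not. Sequences are from RefSeq on GRCm38.p6, taken from the 250 bases before the start, 5′ to 3′ on the gene's strand, and are printed up to the first base that GENCODE puts in an exon. Capitals mark matches to the 4 motifs searched, whose letters are given after the sequences.
Cdh18, chr15:23036213-23036454, plus strand: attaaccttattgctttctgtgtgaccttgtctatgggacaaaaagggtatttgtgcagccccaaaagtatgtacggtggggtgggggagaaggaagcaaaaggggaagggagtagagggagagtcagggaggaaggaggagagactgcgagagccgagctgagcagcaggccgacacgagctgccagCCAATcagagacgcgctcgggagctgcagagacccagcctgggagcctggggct
Cdh22, chr2:165234854-165234987, minus strand: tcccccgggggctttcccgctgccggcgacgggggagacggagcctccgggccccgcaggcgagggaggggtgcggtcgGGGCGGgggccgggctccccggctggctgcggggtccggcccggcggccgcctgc
Pcdh15, chr10:73821617-73821866, plus strand: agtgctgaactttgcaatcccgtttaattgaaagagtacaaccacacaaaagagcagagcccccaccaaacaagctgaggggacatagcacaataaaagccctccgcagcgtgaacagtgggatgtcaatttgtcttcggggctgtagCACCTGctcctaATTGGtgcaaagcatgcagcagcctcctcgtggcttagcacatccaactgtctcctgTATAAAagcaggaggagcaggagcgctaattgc

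The GC content over the 250 bases was 77.6% for Cdh22, 58.0% for Cdh18 and 50.4% for Pcdh15, against a median of 52.4% over 32851 windows of the table, and the numbers of CpG were 30, 8 and 6, against a median of 6. Motifs were searched on both strands, and no matches overlapped. Cdh22 held a GC box (GGGCGG) that began 171 bases before the start, a motif present in 32.7% of all windows. Cdh18 held a CCAAT box, spelled as its name, at 62 bases, where 33.8% of windows have one. Pcdh15 held a TATA box (TATAAA) at 33 bases, a motif of 12.4% of windows. It also held a CCAAT box at 90 bases. At 102 bases it held an E-box (CAGGTG), a motif of 17.2% of windows. The RefSeq starts of Cdh18, Cdh22 and Pcdh15 lie inside the genes as GENCODE draws them. The GC and CpG values include 116 exonic bases for Cdh22 and 8 for Cdh18. The Pcdh7 window lay wholly in an exon and is not shown. The data do not tell which start was used in these cells.

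The clustered genes lie on the plus strand of chromosome 18 of GRCm38, the Pcdha genes between 36930184 and 37187661, the Pcdhb genes between 37264938 and 37524479 and the Pcdhg genes between 37661793 and 37841873. Exons shared with another gene on the same strand covered a median of 53.55% of the exonic bases of a Pcdha gene and 44.6% of a Pcdhg gene, but 0.0% of a Pcdhb gene. A median of 55.1% of the 100-base stretches of Pcdha transcripts and 43.6% of those of Pcdhg transcripts were found in another member, against 0.208% for Pcdhb. A read from the constant exons cannot be given to 1 gene, so that the counts of single Pcdha and Pcdhg genes are uncertain. Counts in the Pcdha cluster ranged from 0 to 855 between genes. Pcdha11 was listed under a pair of gene IDs, and neither was tested.

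The summed level of the Pcdha cluster was higher in Arf1-deficient cells. Its 14 genes summed to 43.7, 44.2 and 36.7 CPM in the shlucif libraries, to 93.7, 105 and 94.3 CPM with shArf1-1 and to 84.2, 89.9 and 88.8 CPM with shArf1-2, with no overlap. The Pcdhb genes summed to 58.7 ± 5.39 CPM with shlucif, 62.0 ± 3.85 CPM with shArf1-1 and 66.6 ± 8.72 CPM with shArf1-2, and the Pcdhg genes to 41.7 ± 4.80, 46.8 ± 0.734 and 41.2 ± 0.232 CPM (SD, n = 3 each). Neither of these clusters separated Arf1-deficient from control libraries. The sums are descriptions without a test.

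**Figure D4:**
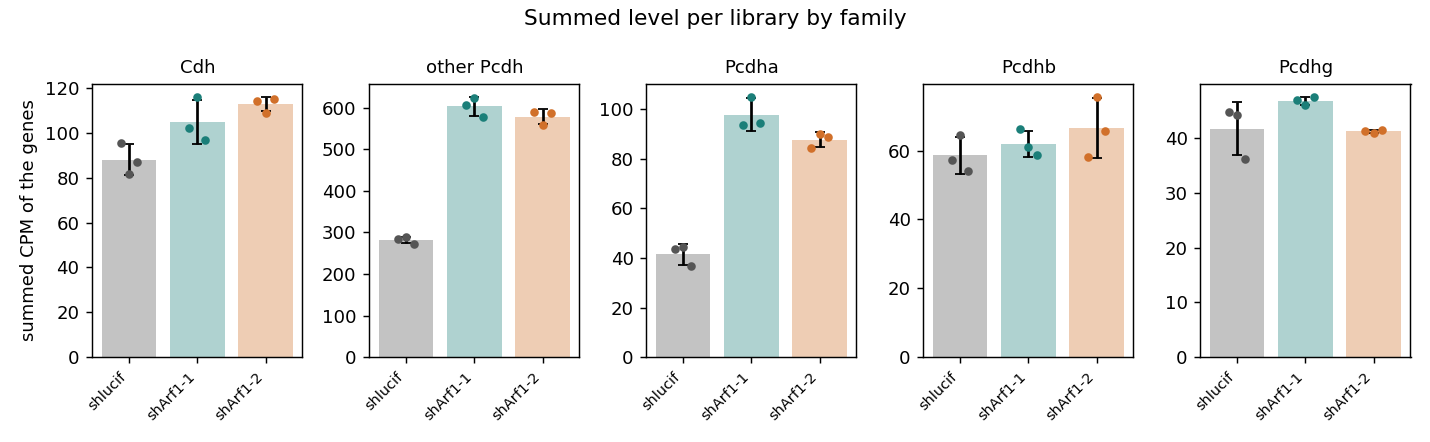
Summed CPM of the genes of each family per library, with bars for group means, error bars for ± 1 SD (n = 3) and dots for single libraries; each panel has its own axis from 0. The Pcdha sum was 41.5 ± 4.2 CPM with shlucif, 97.8 ± 6.49 CPM with shArf1-1 and 87.7 ± 3.01 CPM with shArf1-2, and the rise of the protocadherins outside the clusters (281 ± 7.81 to 603 ± 23.2 and 578 ± 17.4 CPM) is that of Pcdh1, which held at least 96.7% of their counts in every library.

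Pcdhac2 (ENSMUSG00000102697), a C-type isoform of the kind that neurons transcribe without the random choice of the others, led the cluster. It was at 3.52, 3.21 and 2.67 FPKM with shlucif, at 9.25, 10.4 and 9.31 FPKM with shArf1-1 and at 8.6, 8.82 and 8.56 FPKM with shArf1-2. No libraries overlapped, and the log2 fold change was 1.48 (standard error 0.10, adjusted p = 1.63e-10). Its share of all Pcdha counts was 44.3 ± 2.67% with shlucif and 58.2 ± 0.137% and 58.2 ± 1.69% with shArf1-1 and shArf1-2 (SD, n = 3 each), and it was higher in every Arf1-deficient library than in every control library.

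Among the alternate isoforms, Pcdha8 was at 1.39, 1.54 and 1.43 FPKM with shlucif, at 2.66, 3.02 and 2.84 FPKM with shArf1-1 and at 2.27, 2.63 and 2.49 FPKM with shArf1-2 (log2 fold change 0.80, standard error 0.12, adjusted p = 1.23e-05). Pcdha9 was at 2.05, 1.96 and 1.73 FPKM with shlucif, at 3.13, 3.48 and 3.30 FPKM with shArf1-1 and at 2.67, 2.43 and 2.88 FPKM with shArf1-2 (log2 fold change 0.58, standard error 0.13, adjusted p = 0.000695). In neither gene did an Arf1-deficient library overlap with a control library. The share of Pcdha9 in the cluster was 24.6 ± 0.831% with shlucif, 18.1 ± 0.553% with shArf1-1 and 16.2 ± 1.56% with shArf1-2 (SD, n = 3 each).

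Pcdha1 and the C-type Pcdhac1 were weaker calls, and neither passed with shArf1-1 alone (edgeR adjusted p = 0.118 and 0.0651). Pcdha1 had 47, 52 and 32 counts with shlucif, 60, 57 and 55 with shArf1-1 and 67, 66 and 77 with shArf1-2, with overlap after scaling (log2 fold change 0.49, standard error 0.21, adjusted p = 0.0469). Pcdhac1 had 6, 5 and 4 counts with shlucif and between 7 and 14 in Arf1-deficient libraries (log2 fold change 1.12, standard error 0.41, adjusted p = 0.0229). The call of Pcdha1 was lost in 3 of 9 alternative settings and when 7 of 9 single libraries were left out (adjusted p up to 0.26), and that of Pcdhac1 in 2 of 8 settings and without 2 of 9 libraries (up to 0.098). The other Pcdha genes were not tested, among them Pcdha2, Pcdha3, Pcdha5 and 1 listing of Pcdha11, which reached 21, 17, 12 and 13 counts in their highest library.

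**Figure D5:**
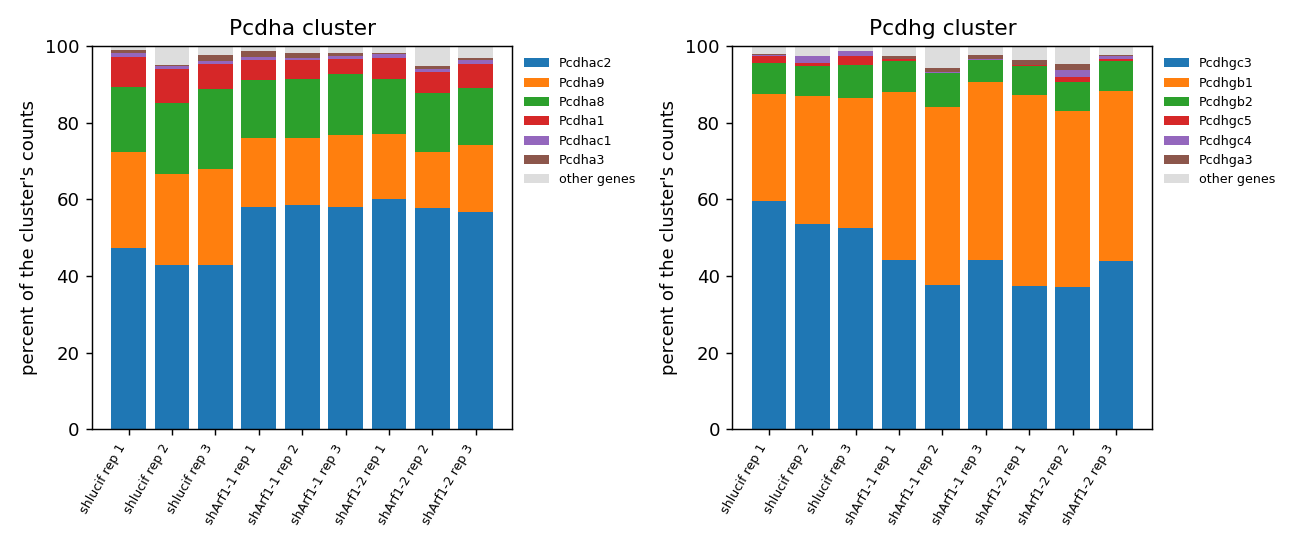
Percent of all counts of the Pcdha cluster (left) and the Pcdhg cluster (right) held by single genes in each library, as stacked bars, with the remaining genes in grey. Pcdhac2 held 42.8 to 47.4% of the Pcdha counts with shlucif and 56.8 to 60.1% in Arf1-deficient libraries, and Pcdhgc3 held 52.5 to 59.6% of the Pcdhg counts with shlucif and 37.2 to 44.1% in Arf1-deficient libraries.

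In the Pcdhg cluster the leading pair moved in opposite directions. Pcdhgb1 (ENSMUSG00000103037) was at 2.16, 2.56 and 2.12 FPKM with shlucif, at 3.57, 3.70 and 3.83 FPKM with shArf1-1 and at 3.55, 3.24 and 3.18 FPKM with shArf1-2, without overlap (log2 fold change 0.56, standard error 0.10, adjusted p = 0.000111). Pcdhgc3 (ENSMUSG00000102918), a C-type isoform known for its part in dendrite branching, was at 4.85, 4.29 and 3.46 FPKM with shlucif, at 3.76, 3.15 and 3.81 FPKM with shArf1-1 and at 2.80, 2.77 and 3.30 FPKM with shArf1-2, with overlap (log2 fold change -0.42, standard error 0.13, adjusted p = 0.00614). Pcdhgc3 held the larger share in every control library, and Pcdhgb1 held 31.8 ± 3.36% of the Pcdhg counts with shlucif, 45.6 ± 1.46% with shArf1-1 and 46.6 ± 2.84% with shArf1-2 (SD, n = 3 each). The call of Pcdhgc3 was lost without shlucif replicate 1 (adjusted p = 0.0734), and annotated exons on the opposite strand cover 28.4% of its exonic bases.

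The third tested gene, Pcdhgb2, was at 0.693 ± 0.0421, 0.705 ± 0.149 and 0.644 ± 0.00613 FPKM (SD, n = 3 each) with shlucif, shArf1-1 and shArf1-2 and did not pass (log2 fold change -0.11, standard error 0.21, adjusted p = 0.663). The C-type genes Pcdhgc4 and Pcdhgc5 were not tested. Pcdhgc5 had 12, 4 and 11 counts with shlucif, 4, 1 and 1 with shArf1-1 and 2, 8 and 3 with shArf1-2, and Pcdhgc4 had 2, 11 and 6, then 0, 1 and 2, then 0, 10 and 5 counts in the same order. In both genes the groups overlapped.

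The Pcdhb genes, whose single exons overlap little with those of other genes, differed among themselves. Pcdhb9 (ENSMUSG00000051242, 37400855 to 37403909) had 20, 28 and 14 counts with shlucif, 55, 37 and 50 with shArf1-1 and 66, 50 and 64 with shArf1-2. No libraries overlapped, and the log2 fold change was 1.31 (standard error 0.26, adjusted p = 0.000204). Pcdhb2 had 15, 12 and 13 counts with shlucif, 25, 13 and 36 with shArf1-1 and 21, 40 and 26 with shArf1-2 (log2 fold change 0.93, standard error 0.33, adjusted p = 0.019). Its groups did not overlap in FPKM, and the call was lost without shlucif replicate 2 or 3 (adjusted p up to 0.0748).

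Pcdhb17 had 40, 52 and 24 counts with shlucif, 78, 36 and 67 with shArf1-1 and 74, 65 and 74 with shArf1-2 (log2 fold change 0.70, standard error 0.25, adjusted p = 0.0185). Pcdhb3 had 8, 4 and 6 counts with shlucif, 17, 16 and 9 with shArf1-1 and 8, 18 and 11 with shArf1-2 (log2 fold change 1.08, standard error 0.46, adjusted p = 0.0462). In both genes the groups overlapped. The call of Pcdhb17 was lost without shlucif replicate 3 (adjusted p = 0.149), and that of Pcdhb3 in 3 of 8 settings and without 6 of 9 single libraries (up to 0.176).

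Pcdhb11 (ENSMUSG00000051486, 37421418 to 37425836) was the Pcdhb gene that fell. It was at 2.40, 2.50 and 2.69 FPKM with shlucif, at 1.55, 1.94 and 1.68 FPKM with shArf1-1 and at 2.21, 2.27 and 1.90 FPKM with shArf1-2, without overlap (log2 fold change -0.46, standard error 0.13, adjusted p = 0.00588). Its neighbors in level did not pass. Pcdhb20 was at 2.68 ± 0.18, 3.31 ± 0.087 and 3.09 ± 0.332 FPKM (log2 fold change 0.19, adjusted p = 0.168), and Pcdhb10 at 2.36 ± 0.324, 2.72 ± 0.103 and 2.77 ± 0.768 FPKM (SD, n = 3 each; log2 fold change 0.16, adjusted p = 0.418) with shlucif, shArf1-1 and shArf1-2. The remaining tested Pcdhb genes had log2 fold changes between -0.52 and 0.22, and their groups overlapped. Of the untested Pcdhb genes, Pcdhb14 reached 11 counts and Pcdhb7 reached 10 in their highest library.

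The cytoplasmic partners that tie cadherins to actin changed in both directions. Of 9 tested catenins and other partners, 5 were lower and 2 higher, with a median log2 fold change of -0.49. Over all tested genes 32.9% were lower and 31.6% higher, with a median of 0.00. Vcl, which encodes the actin linker vinculin, fell from between 2853 and 3003 counts to between 687 and 989 (log2 fold change -1.81, standard error 0.06, adjusted p = 2.59e-15). Jup, which encodes plakoglobin, fell by 0.88 on the log2 scale, Ctnna1, which encodes alpha-catenin, by 0.49, and Afdn, which encodes afadin, by 0.31. The change of Jup differed between the hairpins by 0.52 (edgeR adjusted p = 2.63e-07). Ctnnd2, which encodes delta-catenin of neurons, had between 20 and 25 counts with shlucif and 0 in every Arf1-deficient library. Ctnnb1, which encodes beta-catenin, rose by 0.17 (adjusted p = 0.00918) and Pkp4 by 0.46.

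Of 24 other genes of the cadherin superfamily 12 were tested, and 6 were higher and 1 lower, with a median log2 fold change of 0.20, where 31.6% of all tested genes were higher and 32.9% lower. The calsyntenins Clstn3 (log2 fold change 0.62) and Clstn1 (0.27), the giant cadherins Dchs1 (0.43) and Fat1 (0.26), and Cdhr2 (1.05) rose, and Fat2 went from 0 to 6 counts with shlucif to 10 to 36 in Arf1-deficient libraries. Fat3 went from 25 to 41 counts with shlucif to 0 to 2. As with Pcdh7, the macrophage markers moved with Ctnnd2 and Fat3 in the same libraries, and their part was not tested. Ctnnd2 and Fat3, like Pcdh7, had enough counts for the test only in the shlucif libraries. Fat2 had enough only in Arf1-deficient libraries.

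Of 8 proteases that cleave or mature cadherins, 5 were lower, where 32.9% of all tested genes were, and the median log2 fold change was -0.21. Among those lower were Aph1a (log2 fold change -0.35), which encodes a subunit of gamma-secretase, and Furin (-0.53), which encodes a proprotein convertase. Adam10, the sheddase of N-cadherin and of gamma protocadherins, had a log2 fold change of 0.02 (adjusted p = 0.81). Of 14 chromatin factors known at clustered protocadherin promoters, 8 were higher and 2 lower, with a median log2 fold change of 0.25, beside 31.6% higher and 32.9% lower over all tested genes. Ctcf, whose product joins promoters to enhancers in the clusters, rose by 0.72 (standard error 0.06, adjusted p = 6.98e-09), the cohesin gene Stag1 by 1.07 (standard error 0.08, adjusted p = 1.35e-09) and the DNA methyltransferase gene Dnmt3b by 0.50. The change of Dnmt3b differed between the hairpins by 0.34 (edgeR adjusted p = 0.0281). The cohesin genes Rad21 (0.14) and Smc3 (0.28), and Wiz (0.35), Smchd1 (0.30) and Setdb1 (0.23) were also higher, and Stag2 (-0.23) and Smc1a (-0.18) were lower.

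Of 6 repressors of E-cadherin, 3 were tested. Zeb1 was higher (log2 fold change 0.39, standard error 0.08, adjusted p = 0.000338), where 31.6% of all tested genes were higher. Of 10 cytoplasmic effectors of protocadherins, 3 were higher and 4 lower, with a median log2 fold change of -0.07, shares near the 31.6% and 32.9% of all tested genes. Ptk2b, which encodes the kinase Pyk2 that alpha and gamma protocadherins bind, fell from between 164 and 194 counts to between 5 and 19 (log2 fold change -3.92, standard error 0.22, adjusted p = 1.39e-11), in the same libraries in which the macrophage markers fell. Its relative Ptk2, which encodes focal adhesion kinase, rose by 0.14 (adjusted p = 0.0233). In the WAVE complex, which clustered and delta protocadherins recruit to actin, Nckap1 rose by 0.66 and Wasf1 by 0.37. Cyfip2 fell by 0.31 and Abi1 by 0.24, and the kinase gene Fyn fell by 0.45. In the test between the hairpins, Furin and, among the other superfamily genes, 2 (Dchs1 and Fat1) passed the threshold. So did 3 chromatin factors (Dnmt3a, Dnmt3b and Nipbl) and 3 effectors (Abi1, Abi2 and Brk1). Of all tested genes, 6.98% were higher and 7.46% lower with shArf1-2 in that test.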

How the data were processed

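RNA from 9 libraries of N2a cells was enriched on oligo(dT) beads and primed at random, per the labels. The authors deposited 1 table with whole-number read counts, not normalized, and FPKM values of 21899 genes per library. The deposited FPKM values equal the count over gene length and library total (largest relative deviation 1.89e-07). The labels name mm10, and the aligner, the counter and the use of strand are not given in the sources used here. Only 514 of 21795 genes had the start that GENCODE gives them in that build, and positions given here are therefore those of GENCODE vM21 (GRCm38) by gene ID, which held all 92 members. Columns named shArf2 were read as shArf1-2.

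Counts were fitted with edgeR 4.0.16 in R 4.3.3 (limma 3.58.1), with filterByExpr, TMM scaling, glmQLFit with robust estimation and glmQLFTest, as 6 Arf1-deficient against 3 shlucif libraries, and in a fit of 3 groups for each hairpin. P-values were adjusted by Benjamini-Hochberg over all 12448 tested genes, with a threshold of 0.05. Folds against 0 counts used a floor of 3 counts per library. The fits were repeated with DESeq2 1.42.0, with scaling by library size or by upper quartile, without a filter or with at least 10 counts per library, with limma on log2(FPKM + 1) or, separately, log2(FPKM + 0.1), with replicate number as a block, with the mean of the hairpin contrasts, and without each library in turn. The tests were checked on simulated counts. Totals of 11182479 to 15594615 counts set the precision.

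The members, the 6 gene lists and the 5 marker lists were chosen with earlier results of these data known. Genes named were every tested Cdh and unclustered Pcdh gene, the 3 clustered genes of each cluster with the highest mean FPKM, every clustered gene past the threshold, untested members that reached 10 counts, and listed genes past the threshold, of which some are not reported here by name. Same-numbered replicates did not deviate together (mean correlation 0.007 over 9 pairs, -0.0822 to 0.0941).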

Additional observations from a re-analysis of the deposited data

Results flagged for a closer look

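Cdh15 differed between the hairpins, by a log2 fold change of 0.64 of shArf1-2 against shArf1-1 (adjusted p = 0.026 by edgeR for that difference), with all 3 shArf1-2 libraries above all 3 shArf1-1 libraries. The adjusted p of this difference was between 0.00517 and 0.127 with single libraries left out, and it was above 0.05 without shArf1-1 replicate 1 (0.127) or 3 (0.0967) and without shArf1-2 replicate 1 (0.0706) or 3 (0.102). Groups of 3 libraries are too small for a test of single outlying libraries.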

How the results depend on the processing

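Of the 9 settings other than leaving out a library, the number of members higher stayed between 11 and 16 (14 as reported) and the number lower between 5 and 6 (5 as reported), except that requiring at least 10 counts in every library left 3 members lower, since Pcdh7 and Cdh17 were then not tested. The number of members that differed between the hairpins was 1 in 7 of the 8 settings that give this comparison and 0 by limma on log2(FPKM + 0.1), where Cdh15 had an adjusted p of 0.0502. With single libraries left out, the number higher was between 9 (without shlucif replicate 3) and 14, the number lower between 4 and 7, and the number that differed between the hairpins between 0 and 2. It was 0 without shArf1-1 replicate 1 or 3 or shArf1-2 replicate 1 or 3, and 2 without shArf1-1 replicate 2. With the replicate block, 13 members were higher, 5 lower and 1 differed between the hairpins, and the call lost was Pcdhb3; same-numbered libraries share only a number.

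The near-0 log2 fold changes of Cdh2 and Cdh24 changed sign. Cdh2 was at 0.03 under library size scaling, 0.02 and 0.03 by limma on log2(FPKM + 1) and log2(FPKM + 0.1), and between -0.09 and 0.03 with single libraries left out (0.03 without shlucif replicate 1). Cdh24 was at 0.05 in each of those 3 settings, and between -0.13 and 0.10 with single libraries left out (0.10 without shlucif replicate 1, 0.01 without shArf1-1 replicate 3). The cause was not tested. Library size scaling moved the median of all tested genes from 0.003 to 0.066. Calls of Cdh18, Cdh22, Cdh5, Pcdh1, Pcdh7, Pcdh15, Pcdha8, Pcdha9, Pcdhac2, Pcdhb9, Pcdhb11 and Pcdhgb1 held in every setting in which they were tested and with every library left out. Pcdhb20 passed by limma in both FPKM settings. Depth limits the 58 untested members, and FPKM with a pseudocount understates the change of low genes.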
